A study of Sus scrofa with 4 samples.

Results

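Open chromatin around 9 endothelial genes was examined in porcine fetal fibroblasts, as genes of a lineage other than the one the cells belong to. The genes were PECAM1, CDH5, KDR, FLT1, TEK, TIE1, ERG, VWF and EGFL7, and the peaks analysed were the ATAC-seq peaks that overlapped, by at least 1 bp, the RefSeq gene model (Sscrofa11.1) with 20 kb on both sides. ATAC-seq uses the Tn5 transposase to cut and tag accessible DNA. The RefSeq table placed 8 of the 9 genes, among 19550 protein-coding genes on the chromosomes. EGFL7, which encodes a matrix protein secreted by endothelium, was listed from 1107088 to 1119033 on a scaffold without a name, so its window was not analysed here. The windows of the 8 placed genes held 107 of the 121788 regions obtained by merging overlapping peaks of all libraries.

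The BRG1 libraries, BRG1 1 and BRG1 4, came from fibroblasts that over-expressed BRG1 from the plasmid pTK-642-BRG1. The control libraries, control 1 and control 4, came from wild-type fibroblasts with pTK-642. All cells were labelled as skin fibroblasts of the line PFFs and were serum-starved. BRG1 is an ATPase of the BAF complex, which moves nucleosomes, and the cells served as nuclear donors for cloned embryos. Separate cultures are not stated in the labels, so p-values measure only the spread between these 4 libraries, which may be technical. With 2 libraries against 2, the smallest p of the exact permutation test is 0.33, so no comparison of the groups could pass 0.05.

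Endothelial cells line blood vessels. They hold together through junction proteins, among them PECAM1 and VE-cadherin (CDH5), and they sense vessel growth signals through receptor tyrosine kinases. KDR is the main signalling receptor for VEGFA, FLT1 binds VEGFA and PGF, and TEK binds angiopoietins and pairs with TIE1. ERG is a transcription factor of the ETS family that maintains endothelial identity, and VWF is a secreted glycoprotein that captures platelets at injured vessels. Fibroblasts and other cells around vessels secrete ligands for several of these receptors.

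The peak lists held 96367 peaks in BRG1 1, 90851 in BRG1 4, 107475 in control 1 and 105954 in control 4. Absolute depth is unknown. The background recovered from fold and p at each summit gave a depth of 81.2% in BRG1 1, 92.6% in BRG1 4 and 93.5% in control 4 relative to control 1. BRG1 4 stood apart in peak width, with a median of 541 bp against 396 to 404 bp in the other libraries. Of 21 placed fibroblast genes 18 (85.7%) had a peak within 1 kb of a model end in all 4 libraries, against 68.2% of all protein-coding genes. The 18 included COL1A1, COL1A2, PDGFRA and VIM, and not DCN, FN1 or POSTN. Pericyte and smooth muscle genes stood at 83.3% by the same measure, so it does not separate the labelled cell type from those.

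Most of the 8 placed genes had no peak called within 1 kb of either end of the gene model, while all 8 had at least 1 region somewhere in the window in all 4 libraries. Only KDR and ERG had a peak within 1 kb of a model end, and both had it in all 4 libraries. PECAM1, CDH5, FLT1, TEK, TIE1 and VWF had none in any library. Over all protein-coding genes 68.2% had such a peak in all 4 libraries, 5.96% in 1 to 3 libraries and 25.8% in none. Of the other endothelial genes described below, 18 of 24 surface proteins and receptors and 14 of 18 transcription factors had one in all 4 libraries. The RefSeq table gives no strand, so the end that holds the transcription start was not assigned, and exons, introns and UTRs were not assigned either. A region absent from a list was not called at that depth, which does not show that it was closed.

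**Figure D1:**
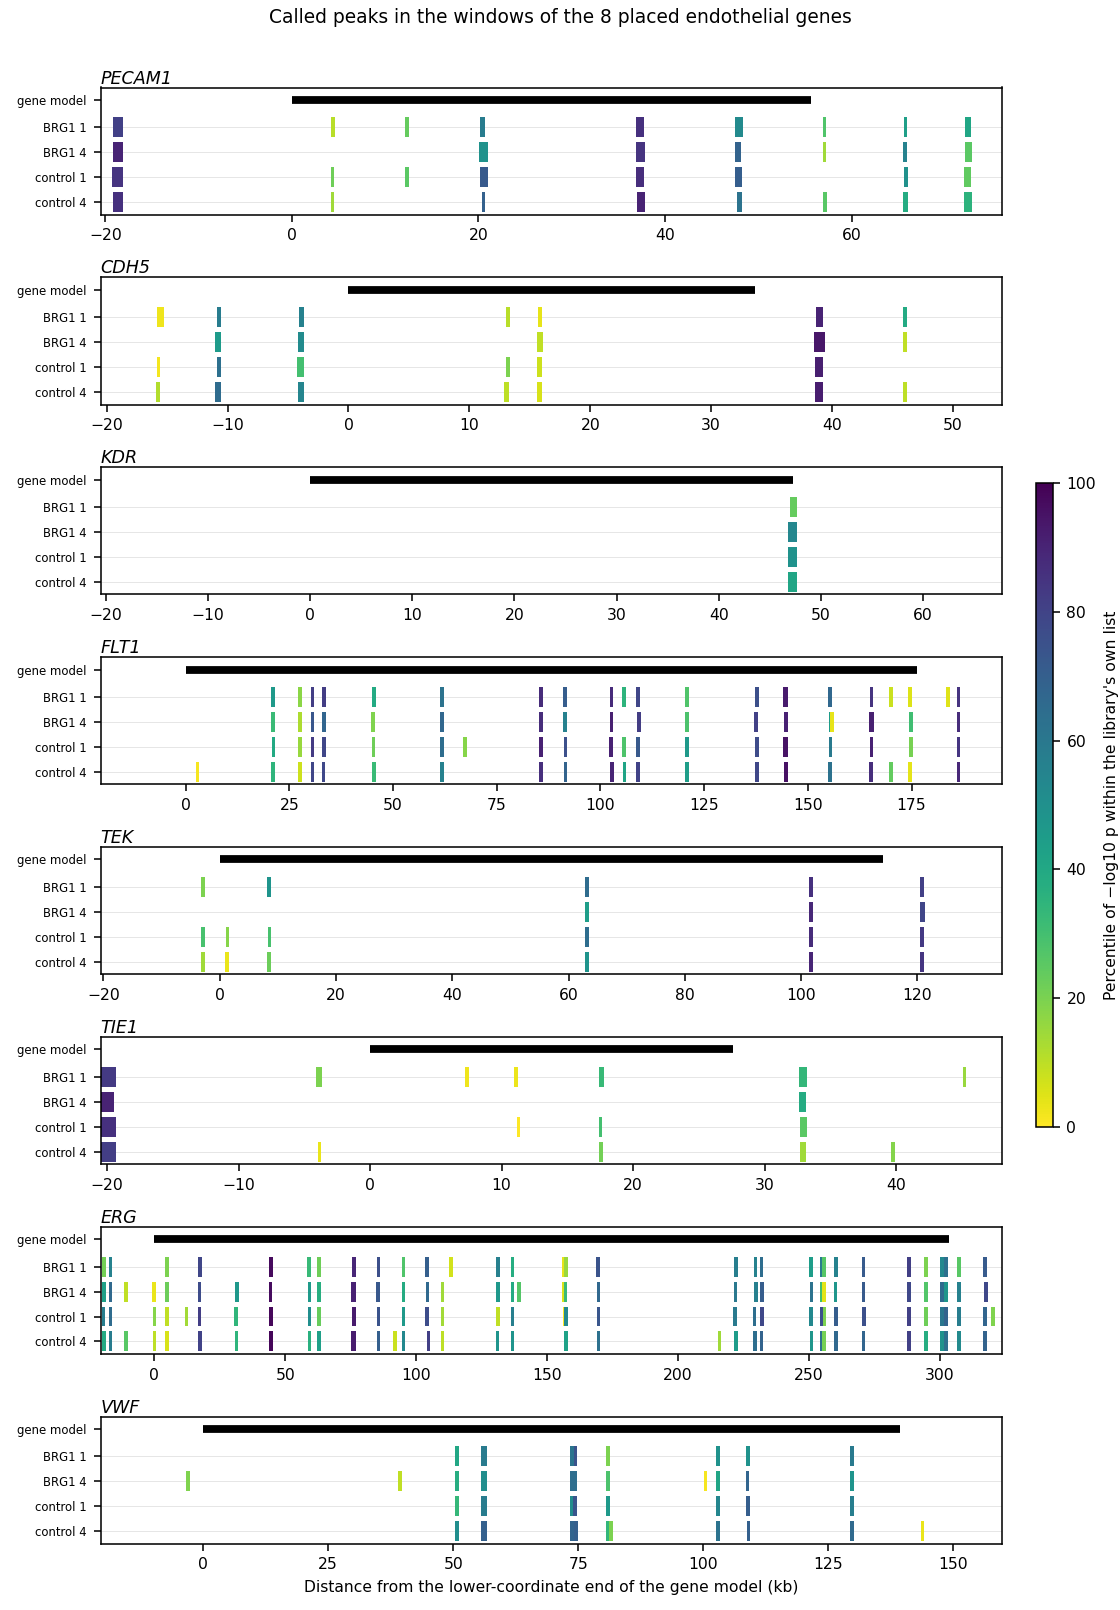
Peaks called in the window of each placed endothelial gene, by library from top to bottom, against distance from the lower-coordinate end of the gene model in kb. Each block runs from the first to the last base under the peaks of a region, narrow ones widened to stay visible, and colour gives the percentile of −log10 p within the library's own list (100 is strongest). ERG and FLT1 carried many blocks in every library, and KDR carried 1.

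Values of strength are given as the percentile of a peak's −log10 p within its own list. Percentiles of lists of different lengths show no change between libraries, and are given only to place a peak in its own list. The fold is the authors' value of the summit over the local background of the same library.

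Among the junction genes, PECAM1 lies on chromosome 12 from 14667643 to 14723296 and its window held 9 regions. It had 9 peaks in BRG1 1, 7 in BRG1 4, 8 in control 1 and 8 in control 4. These counts overlapped between the groups. The strongest region lay inside the model, chr12:14704484-14705475, and ranked at percentile 86.2 in BRG1 1, 85.1 in BRG1 4, 87.0 in control 1 and 90.5 in control 4. All 4 libraries thus ranked it at percentile 85.1 or higher, 17821 bp from the nearer model end. The region nearest to an end, chr12:14724574-14724889, lay 1278 bp beyond the higher-coordinate end and was called in every library except control 1, at percentiles of at most 27.4.

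CDH5, which encodes the adhesion protein of endothelial adherens junctions, lies on chromosome 6 from 27108560 to 27142145. Its window held 7 regions, of which 2 touched the model and 5 lay outside it. There were 7 peaks in BRG1 1, 5 in BRG1 4, 6 in control 1 and 7 in control 4. BRG1 4 had the lowest number, and BRG1 1 equalled the highest control. The strongest region, chr6:27147046-27147974, stood 4901 bp beyond the higher-coordinate end, with percentiles of 90.6 in BRG1 1, 93.9 in BRG1 4, 91.7 in control 1 and 91.8 in control 4. Inside the model the regions were weak: chr6:27124156-27124660 was called in all 4 libraries at percentiles of 3.73 to 9.65, and chr6:27121398-27121931 in every library except BRG1 4 at 9.88 to 19.7.

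Among the receptors of VEGF ligands, KDR had the emptiest window. KDR lies on chromosome 8 from 41809116 to 41856379, and its window of 87.3 kb held 1 region, chr8:41855857-41856811, which spanned the higher-coordinate end of the model. That region was called in all 4 libraries, at percentile 23.7 in BRG1 1, 53.9 in BRG1 4, 49.0 in control 1 and 41.1 in control 4, with folds of 6.26, 8.54, 8.70 and 7.10 in that order. It was therefore of middle or low rank in every list, and the groups overlapped. The remaining 66.7 kb of window below it, including nearly all of the gene model, carried no peak in any library. At most 1 region in the window was seen for 11.3% of all protein-coding genes. PDGFRA, which encodes a receptor tyrosine kinase of fibroblasts and lies on the same chromosome from 40966568 to 41021440, had 9 peaks in BRG1 1, 10 in BRG1 4, 12 in control 1 and 11 in control 4 within its window (chosen for this comparison after its values were seen). Both BRG1 counts at PDGFRA were below both controls, as for 19.0% of all protein-coding genes.

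FLT1 differed from KDR in the number of regions. It lies on chromosome 11 from 5620698 to 5797095, and its window held 23 regions, 17 of them called in all 4 libraries and 21 touching the model. Peaks numbered 20 in BRG1 1, 18 in BRG1 4, 20 in control 1 and 21 in control 4. BRG1 1 matched control 1, so the groups overlapped. The strongest region, chr11:5764810-5766028, ranked at percentile 92.8 in BRG1 1, 90.8 in BRG1 4, 95.3 in control 1 and 95.6 in control 4, at 31067 bp inward of the higher-coordinate end. The region nearest to a model end that all 4 libraries shared, chr11:5795115-5795954, was weak, at percentile 5.44 in BRG1 1, 30.7 in BRG1 4, 20.5 in control 1 and 4.14 in control 4. It lay 1141 bp inside the higher-coordinate end, just beyond the distance of 1 kb used for gene ends.

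The angiopoietin receptor gene TEK lies on chromosome 1 from 195938177 to 196052294 and held 6 regions in a window of 154 kb. It had 5 peaks in BRG1 1 and 3 in BRG1 4, against 6 in control 1 and 6 in control 4. TEK was the only gene of the 8 for which both BRG1 libraries had fewer peaks than either control library (1 of 8), against 19.0% of all protein-coding genes. No gene of the 8 had more peaks in both BRG1 libraries, against 1.29% of all genes. The 3 regions shared by all libraries lay in the middle and at the higher-coordinate side, and the strongest, chr1:196039546-196040217, ranked at percentile 86.1 in BRG1 1, 88.9 in BRG1 4, 87.8 in control 1 and 89.5 in control 4. The other 3 lay within 8358 bp of the lower-coordinate end, where the model of LOC102166359 also overlaps the window. One of them, chr1:195939338-195939601, lay 1161 bp inside TEK and nearer, at 778 bp, to a model end of LOC102166359. It was called in both control libraries and neither BRG1 library, at the low percentiles of 18.1 in control 1 and 3.20 in control 4. The other 2 were called in every library except BRG1 4.

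TIE1, which encodes the partner receptor of TEK, lies on chromosome 6 from 167919662 to 167947253. Its window held 8 regions, of which 2 were called in all 4 libraries and 3 in 1 library alone. Peaks numbered 7 in BRG1 1, 2 in BRG1 4, 4 in control 1 and 5 in control 4. The 2 BRG1 libraries were thus the highest and the lowest of the 4. The shared region chr6:167952274-167952926 lay 5021 bp beyond the higher-coordinate end, at percentile 33.8 in BRG1 1, 38.8 in BRG1 4, 25.6 in control 1 and 14.1 in control 4. Within TIE1 itself BRG1 1 had 3 peaks, BRG1 4 had 0, control 1 had 2 and control 4 had 1. No region inside the TIE1 model was called in all 4 libraries.

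ERG carried the most regions of the 8 genes. The gene lies on chromosome 13 from 201999237 to 202302572, and its window of 343 kb held 40 regions, 29 of them called in all 4 libraries. Peaks numbered 35 in BRG1 1, 37 in BRG1 4, 37 in control 1 and 37 in control 4. These numbers were nearly equal, and BRG1 4 did not fall below the controls here. The strongest region of all 107 was chr13:202043129-202044196, at 43892 bp inward of the lower-coordinate end, at percentile 97.7 in BRG1 1, 97.3 in BRG1 4, 98.3 in control 1 and 98.7 in control 4. Its fold was 23.3 in BRG1 1, 17.3 in BRG1 4, 23.2 in control 1 and 24.1 in control 4, with the lowest value in BRG1 4. This was not particular to ERG. Over all regions of the 8 windows called in every library, the median fold was 9.78 in BRG1 1, 7.96 in BRG1 4, 10.7 in control 1 and 10.6 in control 4.

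Both ends of ERG were marked, unlike those of the other genes. At the higher-coordinate end chr13:202301181-202302041 lay 531 bp inside the model and ranked at percentile 63.5 in BRG1 1, 47.4 in BRG1 4, 68.7 in control 1 and 63.8 in control 4. At the lower-coordinate end chr13:201999118-201999432 spanned the model end and was called in BRG1 4, control 1 and control 4 and not in BRG1 1, at percentiles of 3.40 to 18.1. Within the model a stretch of 45.7 kb, from 202169201 to 202214875, carried no peak in any library. All 3 regions of the endothelial windows that were called in every library except BRG1 1 lay at ERG.

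VWF, the platelet adhesion gene, lies on chromosome 5 from 64516627 to 64655938, and its window held 13 regions. Peaks numbered 8 in BRG1 1, 11 in BRG1 4, 9 in control 1 and 10 in control 4, so that the BRG1 libraries were again lowest and highest. The 8 regions shared by all libraries were the whole set of BRG1 1, and all lay inside the model. The strongest, chr5:64590812-64591303, ranked at percentile 74.4 in BRG1 1, 64.3 in BRG1 4, 73.8 in control 1 and 69.9 in control 4. The other 5 regions were called in 1 library alone, and the first 50514 bp of the model held no shared region.

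**Figure D2:**
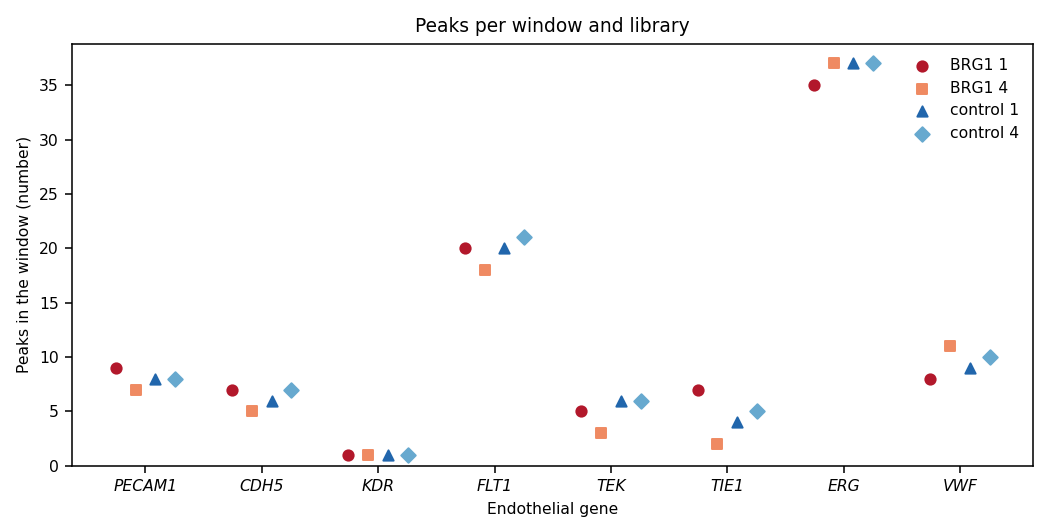
Number of peaks in the window of each placed endothelial gene (y axis) by library (points, no error bars because each point is 1 library). ERG ranged from 35 to 37 peaks and KDR had 1 peak in each library, while TEK was the only gene with both BRG1 points below both control points.

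Because the windows differ in length, peak numbers were also taken per 100 kb of window as the mean of the 4 libraries. ERG had 10.6 peaks per 100 kb, followed by FLT1 with 9.13, CDH5 with 8.49, PECAM1 with 8.36, TIE1 with 6.66, VWF with 5.30, TEK with 3.24 and KDR with 1.15. FLT1, CDH5 and PECAM1 could not be told apart, since their ranges over the libraries overlapped: 8.32 to 9.70 for FLT1, 6.79 to 9.51 for CDH5 and 7.32 to 9.41 for PECAM1. ERG, at 10.2 to 10.8, lay above these 3 in every library, and TEK, at 1.95 to 3.89, lay below VWF, at 4.46 to 6.13. TIE1 varied most, from 2.96 to 10.4, and overlapped every gene except KDR. Among all 19550 genes, whose median was 6.55 peaks per 100 kb, ERG stood at percentile 76.9 and KDR at 8.86. The median over the 8 genes was 7.51, so a low density was not common to them: 5 of the 8 lay above the median of all genes.

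**Figure D3:**
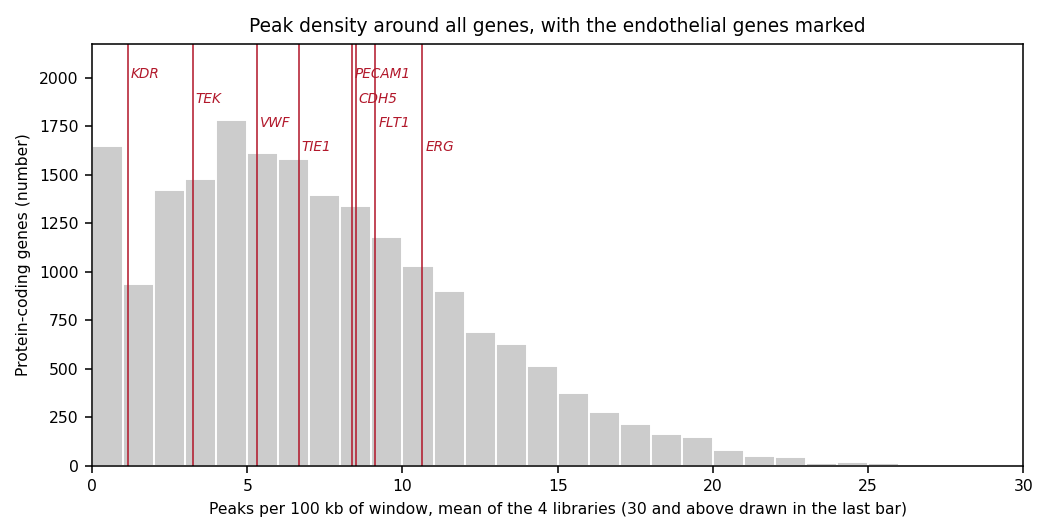
Distribution of peak density over all protein-coding genes (grey bars, number of genes by peaks per 100 kb of window, mean of the 4 libraries), with each endothelial gene marked by a line. The 8 genes spread from 1.15 for KDR to 10.6 for ERG, around the median of 6.55 of all genes.

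The position of the regions set the endothelial windows beside the whole series. Of the 107 regions 81 touched a gene model of the list, 11 lay below its lower end and 15 above its higher end. Only 3 lay within 1 kb of an end of an endothelial gene and 17 within 5 kb. Counting the ends of any protein-coding gene, 6 regions (5.61%) lay within 1 kb, against 13.7% of all regions on the chromosomes. For regions called in all 4 libraries this share was 2.86% in the endothelial windows and 18.4% in all. Shared regions were otherwise much like those of the series: their median width was 759.5 bp against 708 bp in all, and their median percentile 60.2 against 60.7. The 107 regions are not spread evenly, since 63 of them (58.9%) belonged to ERG and FLT1.

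The groups were compared over the 8 windows together. There were 92 peaks in BRG1 1, 84 in BRG1 4, 91 in control 1 and 95 in control 4. The 2 groups overlapped, because BRG1 1 lay between the controls. BRG1 libraries averaged 88.0 ± 5.66 peaks and control libraries 93.0 ± 2.83 (SD over 2 libraries, two-sided exact permutation p = 0.67), a ratio of 0.946. Within library number 1 the ratio was 1.01, and within number 4 it was 0.884. Over the whole lists the ratio was 0.877, and the endothelial windows took 9.55 of every 10000 peaks in BRG1 1, 9.25 in BRG1 4, 8.47 in control 1 and 8.97 in control 4 (exact permutation p = 0.33, the smallest possible). Taking the same number of top peaks from every list turned the first ratio to 1.04.

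Length under peaks did not follow the number of peaks. It was 44460 bp in BRG1 1 and 51208 bp in BRG1 4, against 44943 bp in control 1 and 44391 bp in control 4. The excess belonged to BRG1 4, the library with the widest peaks over its whole list, while BRG1 1 lay between the controls. BRG1 libraries averaged 47834 ± 4772 bp and control libraries 44667 ± 390 bp (SD over 2 libraries, exact permutation p = 0.67), a ratio of 1.07 that turned to 0.995 without BRG1 4. Over the whole lists the length was 48406745 bp in BRG1 1 and 55640437 bp in BRG1 4. Control 1 had 53559675 bp and control 4 had 51682112 bp, and the ratio of the means was 0.989. At ERG the length under peaks was 17445 bp in BRG1 1 and 22390 bp in BRG1 4, against 18115 bp in control 1 and 18001 bp in control 4, and FLT1 had the same order, with 9620 bp in BRG1 1 and 12238 bp in BRG1 4, against 10037 bp in control 1 and 9780 bp in control 4. How often BRG1 4 was greatest or least over all genes is not given here. BRG1 4 had the greatest length at 4 of the 8 genes, KDR and VWF being the others, and the least at 2. These were TEK, with 2079 bp in BRG1 1 and 1777 bp in BRG1 4, against 2548 bp in control 1 and 2208 bp in control 4, and TIE1, with 2730 bp in BRG1 1 and 1101 bp in BRG1 4, against 1676 bp in control 1 and 1804 bp in control 4.

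The regions were next sorted by the libraries that called them. In the endothelial windows 70 of 107 regions (65.4%) were called in all 4 libraries, against 61.8% of all regions. There were 0 regions called in both BRG1 libraries and neither control library, against 0.741% of all regions, and 1 region called in both control libraries and neither BRG1 library, that in TEK, against 4.41%. By genes, 0 of 8 windows held a BRG1-only region, against 4.48% of all genes, and 1 of 8 a control-only region, against 20.2%. Counts of 0 and 1 were not tested against these shares. Leaving out a library lets fewer libraries share a call: without BRG1 1, BRG1 4, control 1 or control 4 the BRG1-only counts were 6, 4, 1 and 2 and the control-only counts 8, 4, 7 and 5. The shares over all regions with a library left out are not given here, so these counts cannot be set against the series.

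Of the regions called in 3 libraries, most were missing from BRG1 4. It alone lacked 7 regions (6.54%), close to its share of 6.39% over all regions, and these lay at CDH5, TEK, PECAM1, FLT1 and TIE1. BRG1 1 alone lacked 3 (2.73% of all regions). Control 1 alone lacked 2 (1.03% of all regions) and control 4 alone 1 (1.21% of all regions). A further 18 regions (16.8%) were called in 1 library alone, against 16.4% of all regions. Regions that were not shared by all were of low rank: the 7 that BRG1 4 lacked had a median percentile of 20.9 over the libraries that called them and the highest reached 34.9, while the 70 shared regions had a median of 60.2. Their median width was 359 bp, against 759.5 bp for the shared ones. These are widths of merged peaks, and only the shared regions include BRG1 4, the library with the widest peaks, so the 2 widths are not directly comparable.

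**Figure D4:**
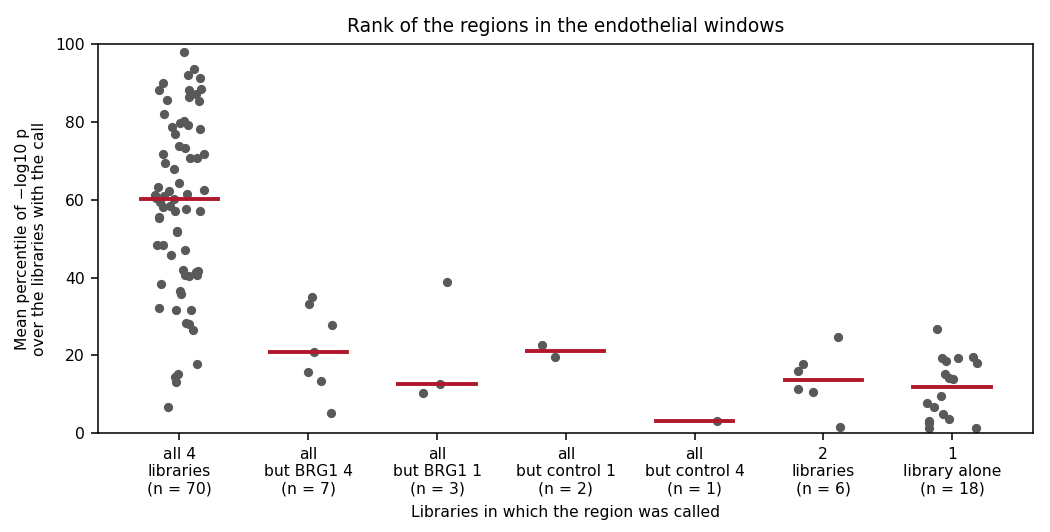
Mean percentile of −log10 p over the libraries with the call (y axis) for each of the 107 regions in the endothelial windows (points), sorted by which libraries called it, with the median as a red line. Shared regions span almost the whole range with a median of 60.2, and regions missing from any library reach at most percentile 38.9.

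Other genes of endothelial biology were examined from lists of surface proteins, transcription factors and ligands. Among 24 placed surface proteins and receptors, 18 carried a gene-end peak in every library and 6 in none, which is 75.0% against 68.2% of all genes. The 6 without were ROBO4, a guidance receptor, EMCN, a mucin-like surface protein, PLVAP, a component of endothelial diaphragms, CD93, SELE, an adhesion protein of activated endothelium, and MMRN2, a matrix protein. Among 18 transcription factors 14 had one in all 4 libraries, FLI1, MEF2C and PROX1 had none, and SOX18 had one in every library except BRG1 4. FLI1 and ERG are related ETS factors, and the window of FLI1 held 10 peaks in BRG1 1, 10 in BRG1 4, 12 in control 1 and 12 in control 4, so that its regions lay away from its ends. Both BRG1 counts at FLI1 were below both controls, as for 19.0% of all protein-coding genes.

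The list of receptor ligands, which also held the angiopoietin-like gene ANGPTL1, was mixed. Of 9 genes, VEGFA, PGF and ANGPT2 carried a gene-end peak in every library, VEGFB only in control 4, VEGFD only in BRG1 4, and VEGFC, ANGPT1, ANGPT4 and ANGPTL1 in none. VEGFA, the ligand of KDR and FLT1, had 6 peaks in BRG1 1 and 8 in BRG1 4 in its window, against 10 in control 1 and 10 in control 4. Both BRG1 libraries were below both controls at 3 of the 9 genes of this list, VEGFA, VEGFC and ANGPT2, and above both at 0, against 19.0% and 1.29% of all genes. Below both controls were also 7 of 21 fibroblast, 6 of 18 endothelial transcription factor and 4 of 12 pericyte and smooth muscle genes. So were 4 of 24 other endothelial surface proteins and 2 of 11 epithelial genes, both near the 19.0% of all genes. The counts were 1 of 12 for blood cell genes and 1 of 8 for the genes described above. VEGFC had 8 peaks in BRG1 1 and 9 in BRG1 4, against 11 in control 1 and 10 in control 4, and ANGPT2 had 7 in BRG1 1 and 9 in BRG1 4, against 10 in each control library. None of these counts of genes was tested against the share of all genes. VEGFA and the other list genes named as having a peak in all 4 libraries were chosen after their values were seen. ANGPT1, the activating ligand of TEK, had 7 peaks in BRG1 1, 8 in BRG1 4, 9 in control 1 and 8 in control 4, and these overlapped.

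Lists of other cell types gave a scale for the 2 of 8 endothelial genes. A gene-end peak in all 4 libraries was found for 18 of 21 fibroblast genes, with DCN in no library, FN1 only in BRG1 1 and POSTN only in BRG1 4. It was found for 10 of 12 pericyte and smooth muscle genes, with NOTCH3 in no library and ACTA2 in every library except BRG1 4. Among 11 epithelial genes it was found for 3, EPCAM, ESRP1 and DSP, while CDH1, KRT5, KRT18, TP63 and GRHL2 had none, KRT8 had one only in control 4, CLDN4 in both BRG1 libraries alone and CDH3 in every library except BRG1 4. Among 12 blood cell genes it was found for 4, CD14, CD3E, CD68 and SPI1, while PTPRC, CD4, CD74, CSF1R, ITGB2, LYZ and MS4A1 had none and ITGAM had one in BRG1 1 and control 1. The endothelial share of 25.0% was thus near those of the epithelial list, 27.3%, and the blood cell list, 33.3%, and below the 75.0% and 77.8% of the other endothelial lists. Whether the shares differ beyond chance was not tested, since the lists are short and their genes were chosen with earlier results of these data known.

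**Figure D5:**
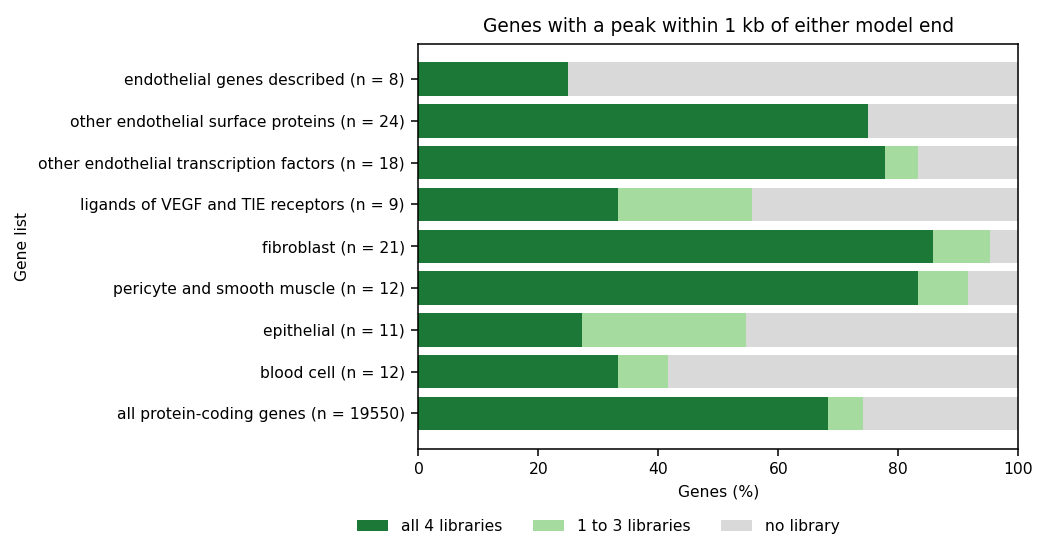
Share of genes in each list (x axis, %) with a peak within 1 kb of either model end in all 4 libraries, in 1 to 3 libraries or in none. The 8 endothelial genes described stand at 25.0% for all 4 libraries, against 85.7% of fibroblast genes and 68.2% of all protein-coding genes.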

How the data were processed

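The authors deposited 1 narrowPeak list per library. FastQC, BWA, Bowtie, SAMtools and MACS2 and the build Sscrofa11.1 are named, per the submitters' processing notes. Tn5 shift, duplicate handling and caller settings can change number and width of peaks and are not given in the sources used. The deposited fold is a ratio of summit to local background, the −log10 p-value and the −log10 q-value, also deposited, rate a peak within its library only, and the deposited score follows the q-value. The lowest −log10 q was 1.31 to 1.35.

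Peaks overlapping by at least 1 bp were merged into regions. Positions were made 1-based and set against RefSeq models of the same build, which have no strand or exons, so the planned start window was not run. No pair of libraries shared more than 0.202% of intervals. Means of the groups were set against each other with exact permutation tests (two-sided) over libraries. Counts and overlaps were tested on simulated data, with 200 of 200 planted genes recovered. Python 3.11.15, pandas 2.3.3 and SciPy 1.17.1 were used. All 8 placed members are named, with the region of the highest mean percentile of each (that of TIE1 is not reported here), regions of 1 group only, and list genes lacking a gene-end peak in any library. The members and lists were chosen with earlier results of these data known. Other settings tried were a minimum −log10 q of 5, the top 90851 peaks of every list, windows of 0, 5 and 50 kb, overlap of 50%, gene-end distances of 3 and 0.25 kb, each library left out, and library number as a block.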

Additional observations from a re-analysis of the deposited data

How the results depend on the processing

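Taking the same number of top peaks from every list turned the ratio of peak numbers in the windows to 1.04, as did that of peaks inside or nearest to an endothelial gene (1.04, against 0.955 with all peaks), and 2 BRG1-only and 0 control-only regions were counted. The 2 lay at CDH5, chr6:27154408-27154797, and at ERG, chr13:202003580-202004406, both called in at least 1 control with all peaks. Leaving out each library gave 0.903 to 0.989 for the ratio of peak numbers, 0.921 to 0.989 for the peaks inside or nearest to these genes, 0.995 (without BRG1 4) to 1.15 for length, and 1 to 6 BRG1-only and 4 to 8 control-only regions; fewer libraries then have to agree on a region. A gene-end distance of 0.25 kb left 1 gene, KDR. At 3 kb there were 3. Shares over all genes and all regions are given above for the main settings only. Counts at the other settings therefore cannot be set against the series. Library number as a replicate block gave 0.945, 1.07 and 0.955 (exact sign-flip p = 1 each, the smallest possible being 0.5). Deviations of same-numbered libraries correlated at −0.0263. With 2 libraries per group both numbers give this same value, and it cannot show whether same-numbered libraries were prepared together. Of the other values, 59 kept their direction, or stayed within 1.5 times for counts. The cause of the changes was not tested. The planned count of peaks at transcription starts was not run.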
